A study of Mus musculus with 4 samples.

Results

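The 10 genes described here encode proteins of the adherens and tight junctions and of the border between endothelial cells. They are Cdh5, Pecam1, Cldn5, Esam, Jam2, Jam3, F11r, Tjp1, Ocln and Cgnl1. They were chosen by name, as the probe sets whose platform gene symbol is 1 of these, and they are 10 of the 18193 named genes on the array. All 22 of their probe sets were read, and the brightest, by its mean of the 4 arrays, stands for its gene. Values are log2 expression levels from RMA, the method that corrects background, normalizes arrays to each other and gives 1 value per probe set, so a difference of 1 is a 2-fold difference. Levels of different genes are not compared as amounts of transcript. Where a level is set against the median over all probe sets, or called bright or low, this describes array signal only.

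The cells came from B16 melanoma, a transplantable pigmented tumor line, grown for 2 weeks in C57BL/6 mice that carried a multicolor Cre reporter. Endothelial cells had been labelled with tamoxifen; in such mice the label color passes to daughter cells, although unrelated cells may share it. CD45-, CD31+ and CD144+ cells were sorted from dissociated tumors, and in each of tumors A and B the commonest clone, called expansion, and the rarest, called extinction, gave 1 array each. The labels used here do not give the promoter that drives the Cre, the age of the mice or the number of cells per array. Each clone class and each tumor thus had 2 arrays and each of the 4 combinations had 1, so no value within a tumor has a replicate. The comparisons asked how the frequent clone differed from the rare one, and how this ran between and across tumors.

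Adherens junctions hold neighbouring endothelial cells together through VE-cadherin, whose cytoplasmic tail binds catenins and through them the actin cytoskeleton. Tight junctions seal the cleft between the cells with claudins and occludin, which the zonula occludens scaffold ties to the same cytoskeleton. Immunoglobulin-like proteins of the cell border, among them PECAM-1, ESAM and the JAM family, adhere across the cleft and take part in the passage of leukocytes. CD31 is the product of Pecam1 and CD144 that of Cdh5, so both sort markers are among the 10 genes, and their presence is what the gate asked for. Tumor vessels are known for loose and leaky junctions.

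The sort markers did not stand alone as endothelial signal. All 20 measured genes of a pan-endothelial list without the junction genes had a mean level over the 4 arrays at or above 5.83. That is the median over all 45037 probe sets. Each gene was read by its brightest probe set, and 11370 of the 18193 genes, the 10 junction genes aside, reached that median. The mean level of the pan-endothelial list was 8.55 (expansion) and 10.61 (extinction) in tumor A and 10.98 and 9.46 in tumor B. Signal of other cell types was present as well. All 13 measured melanoma genes were higher in expansion A and extinction B than in the other array of the same tumor, with list means of 12.28, 7.55, 6.62 and 11.49 in the same array order. Taken as the log2 of the summed level, the melanoma list ranged from 10.82 to 16.58 in expansion and from 12.02 to 15.99 in extinction. The fibroblast list, with a mean between 11.85 and 13.19, and the pericyte list, between 10.14 and 11.30, were bright on every array. The CD45 gene Ptprc lay between 3.63 and 4.27, and 4 of 13 measured leukocyte genes reached the median over all probe sets. The log2 of the summed leukocyte level ran from 9.82 to 11.79 in expansion and from 10.83 to 11.25 in extinction. The melanoma list moved against the junction genes described below, and all 10 fibroblast and 7 of 10 pericyte genes moved with them. Of all genes, 39.5% moved as the latter did. The part of these lists in the junction results was not tested. Over the 18193 genes expansion A correlated most with extinction B (Pearson r = 0.983) and extinction A with expansion B (0.980), and arrays of 1 tumor less (0.942 and 0.945). The arrays thus resembled each other across both class and tumor. The labels are used as given and whether they hold was not tested; if the 2 arrays of either tumor were exchanged, the signs of that tumor below would turn and the crossing genes would have 1 sign in both tumors. In bulk samples such as these, fewer endothelial cells and less RNA per endothelial cell cannot be told apart.

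Across the 4 arrays the junction genes crossed over between the tumors. In tumor A, 9 of the 10 were lower in expansion than in extinction, as 53.7% of all genes were, and in tumor B the same 9 were higher in expansion, as 56.9% of all genes were. Of all genes, 39.5% had that combination of signs. Ocln alone had the reverse, shared by 28.6% of all genes, and none of the 10 had 1 sign in both tumors, as 31.4% of all genes did. Counted at 2-fold, 8 of the 10 (all but Ocln and Cgnl1) were lower in tumor A, against 10.4% of all genes, and the same 8 were higher in tumor B, against 9.68%. In both tumors at once it was those 8, against 5.65% of all genes. The pan-endothelial list had it in 19 of 20 genes by sign and in 17 at 2-fold. With the mean of that list subtracted from each array, 5 of the 10 kept the crossing, as 1.11% of all genes did. Only a gene that moved further than that mean (-2.06 in tumor A and 1.52 in tumor B) can keep it, which holds the share of all genes low. Genes of the list itself kept it too, among them Kdr (-2.80 and 2.31) and Tek (-3.75 and 2.92). Others of the list, such as Flt1 (-1.72 and 0.86), did not. The values of each gene follow by role, and the plot of levels on the 4 arrays shows them together.

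**Figure D1:**
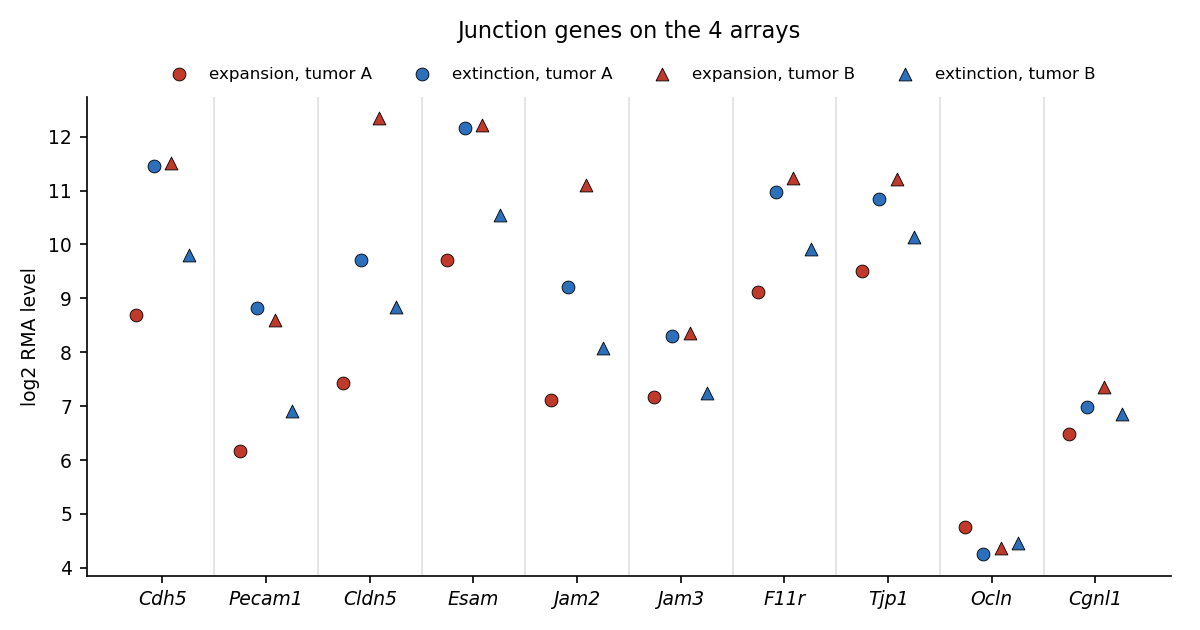
Log2 RMA level (vertical axis) of the 10 junction genes, 1 symbol for each of the 4 arrays, with color for the clone class and shape for the tumor. In 9 genes extinction A and expansion B lie above expansion A and extinction B, Cldn5 and Jam2 peak in expansion B at 12.34 and 11.10, and Ocln stays between 4.26 and 4.76.

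Among the adhesion molecules that served as sort markers, Cdh5, which encodes the VE-cadherin of the adherens junction, was at 8.69 (expansion) and 11.46 (extinction) in tumor A and 11.51 and 9.80 in tumor B. It was thus 6.82-fold lower in expansion within tumor A and 3.27-fold higher in expansion within tumor B. Pecam1, the homophilic adhesion receptor of the border, was at 6.16, 8.82, 8.61 and 6.90 in the same array order. Its differences, -2.66 in tumor A and 1.70 in tumor B, were close to the -2.77 and 1.71 of Cdh5, and both genes were lowest in expansion A. Although every array was sorted for both proteins, their transcripts thus ranged over 2.82 (Cdh5) and 2.66 (Pecam1) on the log2 scale.

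The sealing proteins of the tight junction behaved unlike each other. Cldn5, the main claudin of endothelium, was at 7.43 (expansion) and 9.71 (extinction) in tumor A and 12.34 and 8.85 in tumor B. Its range of 4.91 was the widest among the 10 genes, and expansion B stood above the other 3 arrays. Within tumor B it was 11.3-fold higher in expansion, and within tumor A 4.86-fold lower. Ocln, which encodes occludin, was at 4.76, 4.26, 4.37 and 4.45 in the same array order, below the median over all probe sets throughout. It had the opposite signs, 0.50 in tumor A and -0.08 in tumor B, both small. Its second probe set lay between 3.43 and 3.66 and had the signs of Cdh5, -0.02 and 0.24. The signal of both Ocln probe sets was thus low on the scale of every array, which does not give the amount of transcript.

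Of the immunoglobulin-like members, Esam, an endothelial adhesion molecule of the tight junction, was at 9.72 (expansion) and 12.16 (extinction) in tumor A and 12.22 and 10.54 in tumor B. Its 4 levels rose and fell as those of Cdh5 and Pecam1 did. The root mean square distance between their array-centred levels was 0.13 for Esam and Cdh5 and 0.12 for Esam and Pecam1, over 4 arrays. Jam2, the junctional adhesion molecule B of endothelium, was at 7.12, 9.21, 11.10 and 8.07. It shared the single high array of Cldn5, with a distance of 0.35 from it against 0.68 from Cdh5. F11r, which encodes junctional adhesion molecule A of endothelium, epithelium and platelets, was at 9.11, 10.97, 11.24 and 9.92. Jam3, the junctional adhesion molecule C, was at 7.17, 8.31, 8.35 and 7.25, with a range of 1.18 that lies well under that of Jam2.

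The cytoplasmic members varied less than the sort markers did. Tjp1 encodes the scaffold ZO-1, which joins tight junction proteins to actin in many cell types, and was at 9.51 (expansion) and 10.84 (extinction) in tumor A and 11.21 and 10.13 in tumor B. It differed by -1.33 within tumor A and by 1.08 within tumor B. Cgnl1, which encodes paracingulin, a protein of both junctions, was at 6.48, 6.99, 7.35 and 6.85. Its differences of -0.51 and 0.51 were the smallest among the 9 crossing genes.

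**Figure D2:**
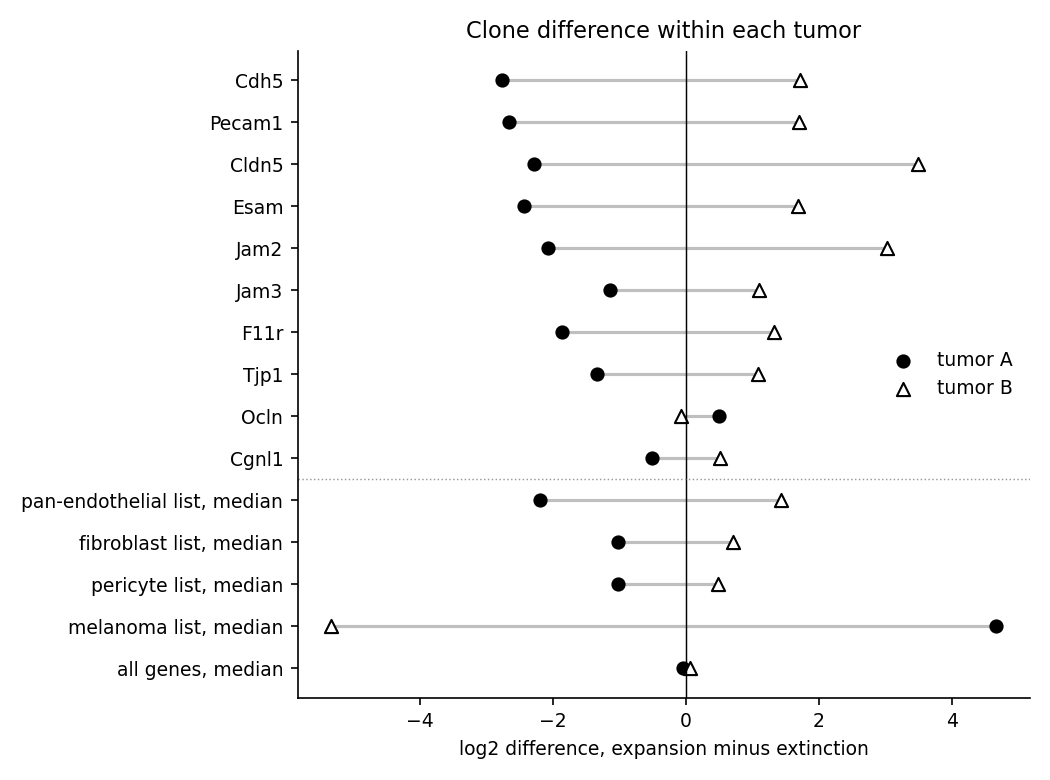
Log2 difference of expansion minus extinction (horizontal axis) within tumor A (filled circles) and tumor B (open triangles) for each junction gene, and as medians for 4 marker lists and all 18193 genes. The junction genes other than Ocln run from negative in tumor A to positive in tumor B, as the pan-endothelial median does (-2.20 and 1.43), while the melanoma median runs the other way (4.68 and -5.34).

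Promoter sequences are shown for 4 junction genes. They set the gene with the widest range (Cldn5) beside 2 that crossed with smaller differences (F11r and Tjp1) and Ocln. The brightest probe set of Ocln did not cross that way. Of the 10 genes, 5 matched the RefSeq promoter table of the GRCm38.p6 build by symbol. Cdh5, Pecam1, Esam, Jam2 and Jam3 did not and are not shown. Cgnl1 matched but is not printed, and its window held neither of the motifs below. Each window runs from 250 bases before to 50 bases after an annotated start, 5′ to 3′ on the strand of the gene. Capitals mark GGAAG, a core bound by the ETS factors that act in endothelium, and CAGGTG, the E-box bound by the repressors Snail and ZEB, each searched on both strands. No match overlapped another. Of 32851 such windows, 71.4% held GGAAG and 20.2% held CAGGTG.
Cldn5 (chr16:18776597-18776896, plus strand): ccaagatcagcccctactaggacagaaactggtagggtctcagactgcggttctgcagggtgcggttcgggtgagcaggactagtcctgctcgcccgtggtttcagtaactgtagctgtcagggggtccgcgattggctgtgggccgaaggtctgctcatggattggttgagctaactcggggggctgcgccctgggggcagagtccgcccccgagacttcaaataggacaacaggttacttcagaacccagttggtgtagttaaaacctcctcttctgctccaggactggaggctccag
F11r (chr1:171437311-171437610, plus strand): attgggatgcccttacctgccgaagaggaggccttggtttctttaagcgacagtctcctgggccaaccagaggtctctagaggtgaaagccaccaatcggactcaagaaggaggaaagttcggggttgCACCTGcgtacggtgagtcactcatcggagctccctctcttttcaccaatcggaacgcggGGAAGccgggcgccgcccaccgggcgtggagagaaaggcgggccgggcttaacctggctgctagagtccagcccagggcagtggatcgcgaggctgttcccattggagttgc
Tjp1 (chr7:65371195-65371494, minus strand): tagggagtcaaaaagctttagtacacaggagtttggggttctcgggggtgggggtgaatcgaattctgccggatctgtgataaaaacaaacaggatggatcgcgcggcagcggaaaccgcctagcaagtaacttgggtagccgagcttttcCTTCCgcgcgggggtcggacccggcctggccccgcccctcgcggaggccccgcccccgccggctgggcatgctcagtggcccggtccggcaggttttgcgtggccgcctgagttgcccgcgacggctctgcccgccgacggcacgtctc
Ocln (chr13:100552449-100552748, minus strand): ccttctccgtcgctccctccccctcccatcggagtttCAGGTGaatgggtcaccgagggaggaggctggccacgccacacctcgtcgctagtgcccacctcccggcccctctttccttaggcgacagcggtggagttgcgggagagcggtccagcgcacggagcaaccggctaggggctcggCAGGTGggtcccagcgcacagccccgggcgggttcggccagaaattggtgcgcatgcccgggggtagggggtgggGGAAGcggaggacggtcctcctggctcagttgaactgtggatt
The Cldn5 window held neither motif. F11r had 1 match of each, with CACCTG (the E-box on the other strand) starting 122 bases before the start and GGAAG 62 bases before it. Tjp1 had CTTCC, the ETS core on the other strand, 99 bases before the start. The Ocln window, that of the downstream of its 2 listed starts, held 2 E-boxes, at 213 and 68 bases before the start, and 1 GGAAG after it. The window of the other Ocln start, not printed, held 1 E-box, shared with the printed window, and no GGAAG. These matches are letters in a window and say nothing of binding.

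The first comparison set the 2 expansion arrays against the 2 extinction arrays. Cdh5 averaged 10.10 ± 1.99 (SD, n = 2) in expansion and 10.63 ± 1.18 (SD, n = 2) in extinction, a difference of -0.53 ± 1.25 (moderated SE). Cldn5 differed by 0.61 ± 1.90, with 9.89 ± 3.47 (SD, n = 2) in expansion and 9.28 ± 0.61 (SD, n = 2) in extinction, and Jam2 by 0.47 ± 1.58. Without expansion B the difference of Cdh5 was -1.94, and without expansion A it was 0.88. The other 7 differences lay between -0.48 (Pecam1) and 0.21 (Ocln). Every one of the 10 was smaller than its standard error, and the largest in proportion to it was that of Ocln, 0.21 ± 0.22. In none of the 10 genes did the 2 classes occupy separate ranges, where 20.7% of all genes had both expansion arrays on 1 side of both extinction arrays.

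In limma's test, adjusted by Benjamini-Hochberg across 45037 probe sets, 0 of the 10 passed (each with adjusted p = 1), beside 0% of all probe sets. At an unadjusted p under 0.05 there were 0 of the 10 genes and 469 probe sets in all. The median difference was -0.07 over the 10 genes and 0.02 over all genes. The SD of the 2 expansion arrays ran from 0.27 for Ocln to 3.47 for Cldn5 on the log2 scale.

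Tumor B was then compared with tumor A over both classes. Cldn5 averaged 8.57 in tumor A and 10.59 in tumor B, a difference of 2.02 ± 1.59 (SE, n = 2 per tumor), and Jam2 differed by 1.43 ± 1.40. Without expansion B the Cldn5 difference was 0.27 and that of Jam2 turned to -0.089. The other 8 lay between -0.10 (Ocln) and 0.58 (Cdh5). The median difference was 0.47 over the 10 genes and 0.65 over the pan-endothelial list, with Tek at 1.73 and Sox17 at 1.74. Within expansion, tumor B was higher by 4.91 for Cldn5 and 3.98 for Jam2. It was higher by at least 2-fold in 8 of the 10 genes, where 11% of all genes were. Pan-endothelial genes reached this too, among them Tek (5.06) and Sox17 (4.38), while Vwf (0.87) and Ptprb (-0.50) did not. Within extinction tumor B was lower for 9 of the 10 junction genes, where 58.6% of all genes were. These differences (tumor B minus tumor A) ran from -1.92 for Pecam1 to -0.15 for Cgnl1, with -0.87 for Cldn5. Higher in tumor B within expansion and lower within extinction were 9 of the 10, as 39% of all genes were. By limma 0 of the 10 passed (each with adjusted p = 1), beside 0% of all probe sets, and none had an unadjusted p under 0.05, where 648 probe sets did. In none of them did the tumors occupy separate ranges, where 23.2% of all genes did.

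Expansion B and extinction A are the arrays with the stronger endothelial and the weaker melanoma signal, and they differ in both class and tumor. The differences of 8 of the 10 junction genes between them lay from -0.21 to 0.37 on the log2 scale. By sign 9 were higher in expansion B, where 48.9% of all genes were. Cdh5 differed by 0.05, Esam by 0.06, Jam3 by 0.04 and Pecam1 by -0.21, taken as expansion B minus extinction A. Cldn5 differed by 2.63 and Jam2 by 1.90, which are 6.18-fold and 3.73-fold. At least 2-fold in that direction were thus 2 of the 10 genes, where 3.05% of all genes were. In the pan-endothelial list 2 of 20 were, the angiopoietin receptor Tek (1.31) and the endothelial transcription factor Sox17 (1.83). The median difference was 0.19 over the 10 junction genes, 0.34 over the pan-endothelial list and -0.01 over all genes. Of the 20 genes of that list, 6 were lower in expansion B. The melanoma list mean was 7.55 in extinction A and 6.62 in expansion B, so the array with more Cldn5 and Jam2 had less melanoma signal. All 10 pericyte genes were lower in expansion B than in extinction A, with differences from -1.40 to -0.44, and the fibroblast genes ran from -0.69 to 1.69. The part of these lists in the difference was not tested. With 1 array on each side there is no test of it.

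Between expansion A and extinction B, the arrays with the stronger melanoma signal, 9 of the 10 genes were higher in extinction B, where 44.9% of all genes were. At 2-fold 2 of the 10 were, Cldn5 and Cdh5, against 2.37% of all genes. Pan-endothelial genes reached it too, among them Tek (2.14) and Sox17 (1.65), while others such as Tie1 (0.28) and Plvap (0.22) did not. Cldn5 differed by 1.42, Cdh5 by 1.11 and Jam2 by 0.95, while Jam3 differed by 0.08 and Ocln by -0.30. The pan-endothelial list had a median of 0.94 there and the 10 junction genes 0.77, so most junction genes moved with that list. The melanoma list had a median of -0.75.

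**Figure D3:**
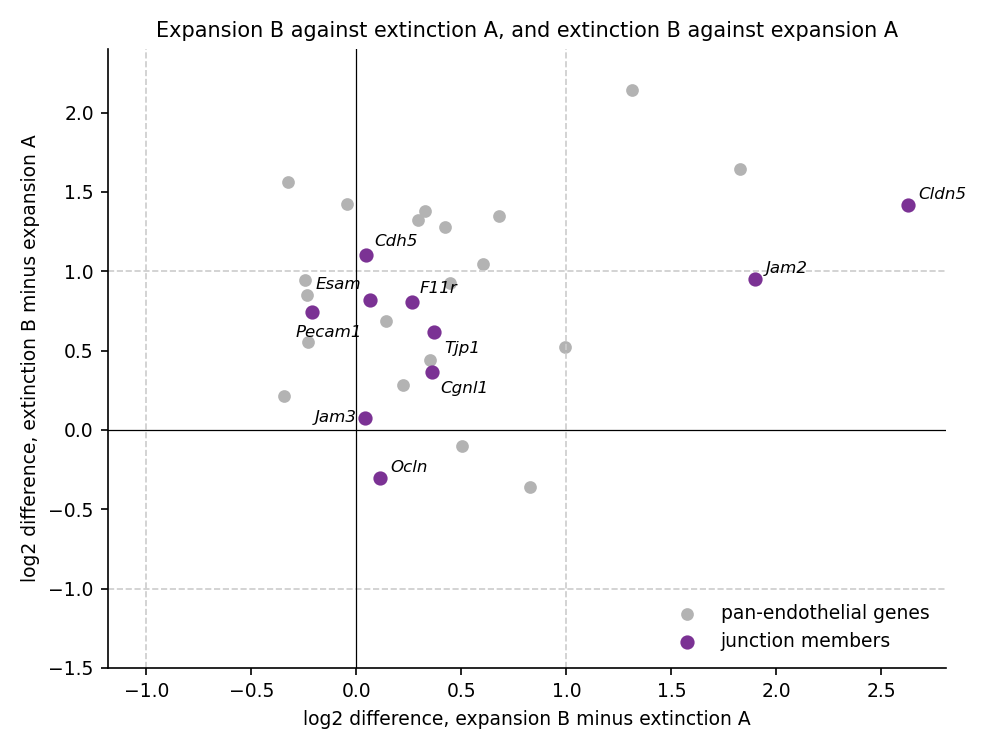
Log2 difference of expansion B minus extinction A (horizontal axis) and of extinction B minus expansion A (vertical axis) for the 10 junction genes (purple, named) and 20 pan-endothelial genes (grey); dashed lines mark 2-fold. Cldn5 and Jam2 lie at 2.63 and 1.90 on the horizontal axis, and the other 8 junction genes between -0.21 and 0.37.

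The levels were also set against the pan-endothelial mean of the same array. That mean differed by -2.06 in tumor A and 1.52 in tumor B, so the subtraction adds 2.06 and -1.52 to every gene alike, and any gene that moved less than the list takes the reverse signs by construction. For Cdh5, Pecam1 and Esam most of the crossing was gone: their relative differences were -0.71, -0.60 and -0.39 in tumor A and 0.19, 0.18 and 0.16 in tumor B. Cldn5 and Jam2 had little left in tumor A (-0.23 and -0.03). They kept 1.97 and 1.51 in tumor B, where they were higher in expansion by more than the list was. Genes of the list itself also exceeded its mean of 1.52 there, such as Tek (2.92) and Sox17 (2.74). Others of the list, such as Flt1 (0.86), did not. The other 5 junction genes moved less than the list in both tumors. F11r had 0.19 and -0.20, Tjp1 0.72 and -0.44, Jam3 0.92 and -0.42, Cgnl1 1.55 and -1.02, and Ocln 2.55 and -1.61. F11r, Tjp1, Jam3 and Ocln are known from other cell types too, as are Pecam1 and Esam. Whether other cells had a part in these relative differences was not tested. Ocln lay below the median over all probe sets on every array. It moved by 0.50 in tumor A and -0.08 in tumor B, so most of its 2.55 and -1.61 is the value added.

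Where a gene had more than 1 probe set, the dimmer ones did not always show the same signs. Jam2 had 5, and all had its signs: the 2 brightest had -2.08 and -2.58 for tumor A, then 3.03 and 3.65 for tumor B, and expansion B exceeded extinction A by 1.90 and 2.31. The second probe set of Cdh5 had its signs at a low level, -0.39 and 0.47. The second probe set of F11r stayed between 6.10 and 6.33 and that of Jam3 between 4.81 and 5.39, both with the opposite signs. Of the 4 dimmer probe sets of Cgnl1, 2 had its signs. In all, 7 of the 12 dimmer probe sets had the signs of the brightest of their gene. Pecam1, Cldn5, Esam and Tjp1 rest on 1 probe set each.

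**Figure D4:**
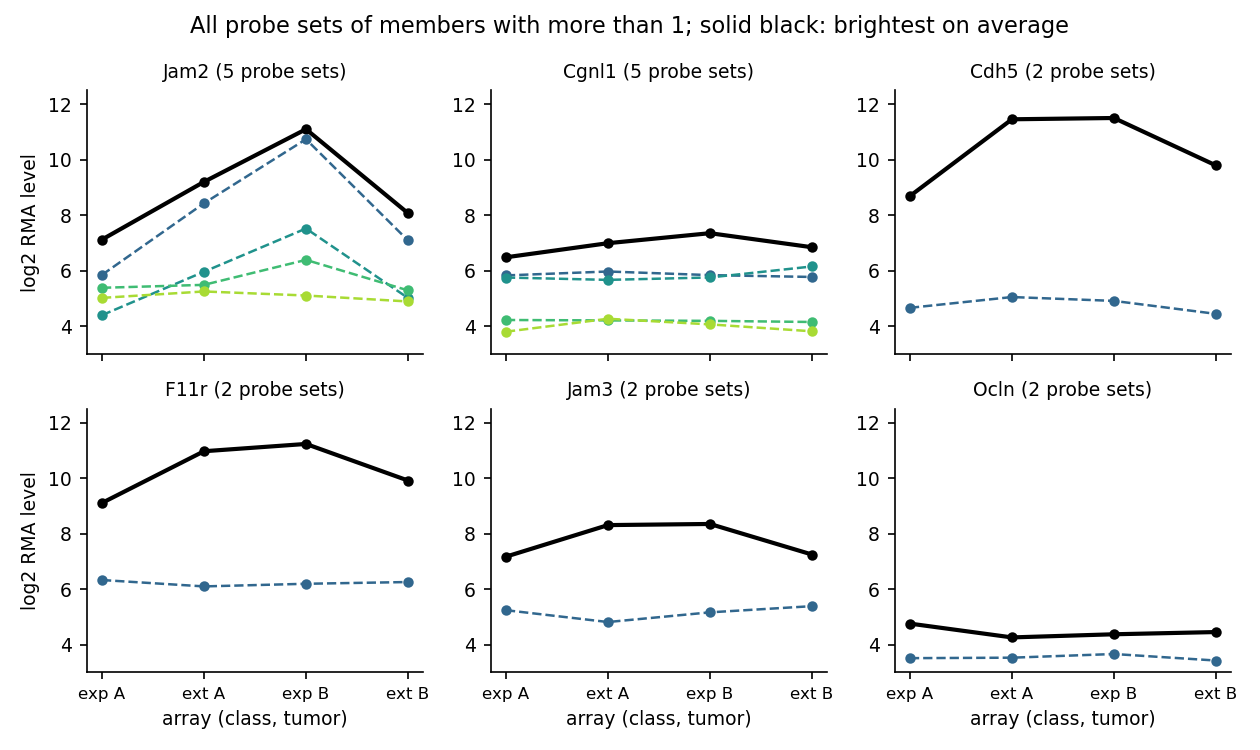
Log2 RMA level (vertical axis) on each array (horizontal axis, class and tumor) for every probe set of the 6 junction genes that have more than 1; the solid black line is the brightest on average. In Jam2 the 2 brightest both peak in expansion B, at 11.10 and 10.74, while in F11r and Jam3 the dimmer probe set is nearly flat.

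The genes whose 4 array-centred levels lay closest to those of Cdh5, among 11370 other genes at or above the median level, were Atp8b1, Ets2, Lmo2, Gpm6b, Gimap4 and Ldb2, at root mean square distances of 0.04, 0.08, 0.09, 0.09, 0.10 and 0.12 over 4 arrays. Atp8b1, for example, was at 7.06, 9.88, 9.90 and 8.12 in the same array order. Closest to the mean of the 10 junction genes were Nos3, Man1a, Birc3, Pik3r1, Itpkc and Slc9a3r2, at distances between 0.02 and 0.06. The distances rest on 4 arrays and are a description.

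Other genes of the 2 junctions were read from lists that cover the rest of the structure. None of the measured genes of these 5 lists passed limma's test in either comparison (adjusted over 45037 probe sets), in either direction. Of the 18 other adherens junction genes, 8 crossed as Cdh5 did, 1 was the reverse, 3 were lower in expansion of either tumor and 6 higher. Of all genes, 39.5% crossed as Cdh5 did and 28.6% were the reverse. The median differences of the 18 were -0.05 in tumor A and 0.49 in tumor B, against -0.04 and 0.07 over all genes. The cadherin genes Cdh11, of mesenchymal cells, and Cdh13, which lacks a cytoplasmic tail, crossed like Cdh5, Cdh11 by -2.12 in tumor A then 2.26 in tumor B, Cdh13 by -1.70 then 2.09. Jup, which encodes plakoglobin, differed by -0.72 and 1.17. Of the other catenin genes that serve VE-cadherin, Ctnnb1 lay between 13.10 and 13.31 and Ctnna1 between 12.60 and 13.16 over the 4 arrays. Ctnnd1, which encodes p120-catenin, lay between 8.75 and 9.55, with differences of 0.31 and 0.45.

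Of the 18 adherens junction genes, 9 had 1 sign in both tumors, where 31.4% of all genes did. Afdn, which encodes the actin-binding afadin, had 10.23 and 11.08 as expansion levels and 9.61 and 9.23 as extinction levels (tumor A first), a difference of 1.24 ± 0.38 (SE). Pkp4 was at 10.88 and 11.56 against 9.81 and 10.86, and Ctnnal1 at 8.07 and 7.86 against 7.21 and 7.33. Ajuba, a LIM protein of the junction, was lower in both tumors, by differences of -0.44 and -1.32, and Cdh2, the N-cadherin gene, by -0.04 and -1.06. Nectin1 was nearly flat, between 6.35 and 6.40. Lower in both tumors was 1 of the 2 probe sets of Cdh2 and 1 of the 3 of Nectin1. Afdn and Ctnnal1 were the 2 genes of the list with an unadjusted p under 0.05, and each had adjusted p = 1 by limma and a second probe set with another combination of signs. The classes had separate ranges in 7 of the 18 genes, where 20.7% of all genes did. Expansion was above in Afdn, Pkp4, Ctnnal1, Lima1 and Arvcf, and below in Cdh2 and Nectin1. Some of these were barely apart: Lima1 differed by 0.04 in tumor B, and in tumor A Arvcf by 0.01, Cdh2 by -0.04 and Nectin1 by -0.006. The signs of the brightest probe set held in 3 of 5 for Lima1 and 2 of 3 for Arvcf.

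The 20 measured genes of the other tight junction list did not cross together. Of them, 7 had the signs of Cdh5, 9 the reverse, 3 were lower in both tumors and 1 higher in both. Of all genes, 39.5% had the signs of Cdh5 and 28.6% the reverse. The median differences of the 20 were 0.09 in tumor A and -0.17 in tumor B. Cldn12 was opposite to Cldn5, at 11.46 (expansion) and 9.59 (extinction) in tumor A and 9.98 and 11.46 in tumor B, the direction of the melanoma list. Among claudins known from epithelia, Cldn3 lay between 6.31 and 6.59, Cldn4 between 5.34 and 5.62, Cldn7 between 5.09 and 5.35 and Cldn1 between 4.09 and 5.17. Tjp3, the ZO-3 gene, lay between 4.35 and 5.83 with the signs of Cldn12. Pard6g, a polarity protein gene, was lower in both tumors, by -0.57 and -0.84, as was Igsf5, by -0.53 and -0.37, while Cgn, which encodes cingulin, was higher in both, by 0.48 and 0.01. Of the 20 genes, 10 had a mean level at or above the median over all probe sets. Of the 18193 genes, the 10 junction genes aside, 11370 did.

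Among 22 measured regulators of endothelial junctions and transmigration, 16 had the signs of Cdh5, 5 the reverse and 1 was lower in both tumors. Of all genes, 39.5% had the signs of Cdh5 and 28.6% the reverse. The median difference of these regulators was -0.61 for tumor A and 0.71 for tumor B. S1pr1, the receptor through which sphingosine 1-phosphate tightens the barrier, was at 6.12, 8.70, 9.17 and 7.17 in the same array order. Vav3, an exchange factor for small GTPases, differed by -2.49 and 3.37, and Tiam1, another such factor, had the reverse signs, 1.59 and -1.43. Amotl1, which encodes an angiomotin-like protein, was the gene lower in both tumors, by -0.30 and -0.39. Of its 3 probe sets, 1 had these signs. Rasip1 and Radil, Rap1 effectors, were the 2 genes of the list at least 2-fold higher in expansion B than in extinction A, by 1.09 and 1.06, as Cldn5 and Jam2 were. Rasip1 was at 5.17 in extinction A, under the median over all probe sets, and both were named after their values were seen.

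The gap junction genes had signs of both kinds. Gja1 was bright on all arrays, from 12.79 to 13.95. Gja4 differed by -0.70 and 0.30, and Gjc1 was lower in both tumors, by -1.56 and -0.25, in 1 of its 2 probe sets. Gjb2 had the widest crossing of the list, at 11.27 (expansion) and 5.98 (extinction) in tumor A and 5.73 and 10.46 in tumor B, with the melanoma list. Of 6 repressors and regulators of junction genes, 5 had the signs of Cdh5, as 39.5% of all genes did. Zeb1, a repressor of cadherin and tight junction genes, differed by -1.99 and 1.32, Twist1 by -1.64 and 1.24, and Foxo1, which represses Cldn5 in endothelium, by -0.87 and 1.21. Foxo1 was thus highest in expansion B, at 10.27, as Cldn5 was. Zeb2 was the reverse, at 0.54 and -0.61. The signs of the brightest probe set held in 2 of 4 for Zeb1, 3 of 4 for Foxo1 and 3 of 5 for Zeb2.

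**Figure D5:**
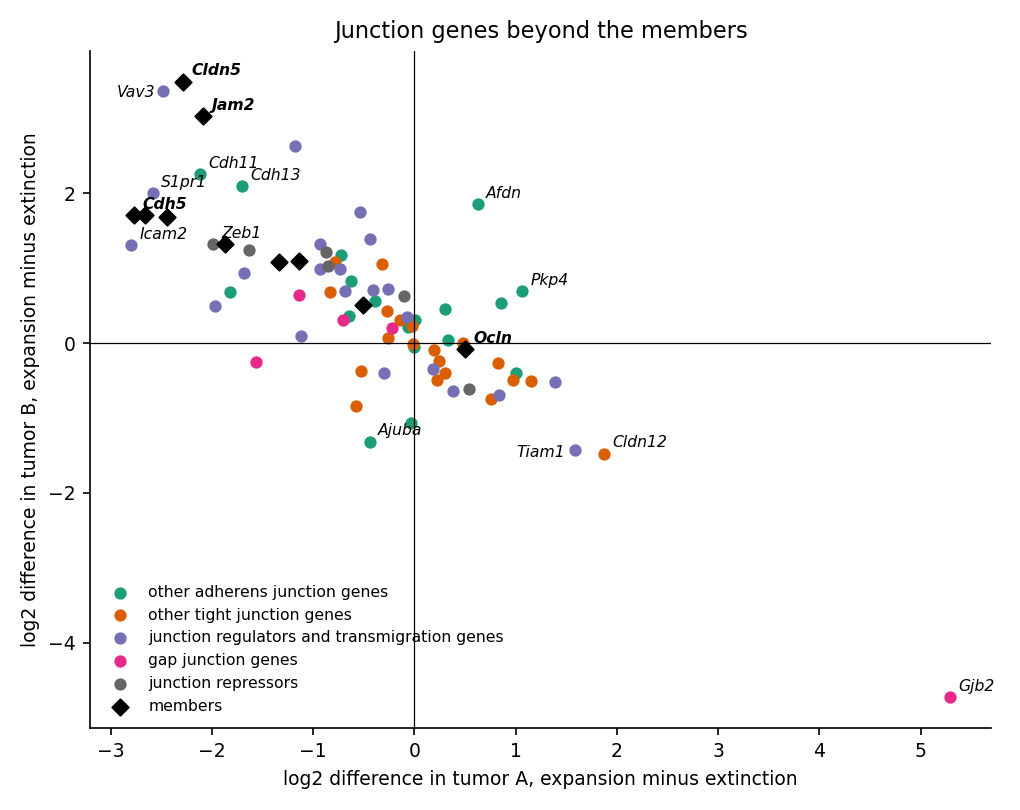
Log2 difference of expansion minus extinction in tumor A (horizontal axis) against tumor B (vertical axis) for the genes of 5 junction lists (colors) and the 10 junction genes (black diamonds). Most genes lie in the upper left, as Cdh5 (-2.77 and 1.71), or the lower right, as Gjb2 (5.29 and -4.73), and the others, among them Afdn (0.63 and 1.85), lie where both differences have 1 sign.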

How the data were processed

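Expression was measured on 4 Affymetrix Mouse430_2 arrays, after TRIzol extraction and 2 rounds of amplification per the labels' protocols. The deposited values are on a log2 scale and were made by the authors with RMA and affy, per the submitters' processing notes, in versions not given in the sources used here. Amplification can favour 3 prime ends of transcripts. An array has no read depth, and precision is limited by having 4 of them.

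Of 45101 probe sets, 64 controls were left out. Symbols came from the platform annotation, checked through gene IDs against the RefSeq table of GRCm38.p6, which changed 0 symbols; 932 probe sets with several symbols and 9160 with none were not named. Class and tumor came from the labels. Both comparisons used limma 3.58.1 in R 4.3.3 (lmFit, eBayes, two-sided) on all 4 arrays, Benjamini-Hochberg over 45037 probe sets, threshold 0.05; standard errors are the moderated ones. P-values measure only the spread between these arrays.

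Same-numbered arrays share a tumor by the labels, which pairs them, but their deviations from the class means correlated at -0.661 over 18193 genes. The 10 genes and the lists were chosen with earlier results of these data known. The further genes named were, per list, up to 3 each higher in both tumors, lower in both and opposite, by size; Ctnnb1, Ctnna1, Ctnnd1, Lima1, Arvcf, Cldn3, Cldn7, Rasip1, Radil and Zeb2, and the single marker genes, were added after their values were seen. Some genes of the lists are not reported here. The alternatives were a replicate block, a filter on level, 2 normalizations, trend and robust estimation, mean probe sets, an endothelial scaling, a 2-fold count and leaving out each array.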

Additional observations from a re-analysis of the deposited data

Results flagged for a closer look

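Each of the 10 junction genes had clone differences of opposite sign in the 2 tumors, with 1 array per class and tumor, so how far the tumors differ in this was not tested. The clone difference in tumor A minus that in tumor B was -5.78 for Cldn5, -5.11 for Jam2, -4.48 for Cdh5, -4.36 for Pecam1, -4.12 for Esam, -3.19 for F11r, -2.42 for Tjp1, -2.24 for Jam3, -1.02 for Cgnl1 and 0.58 for Ocln. Opposite signs were common on these arrays: 39.5% of all genes had those of the first 9 and 28.6% those of Ocln. The melanoma list had its median at 4.68 in tumor A and -5.34 in tumor B.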

How the results depend on the processing

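The probe sets called and the junction genes called numbered 0 in both comparisons under every alternative run on all 4 arrays. Probe sets at an unadjusted limma p under 0.05 numbered from 70 to 1440 for the clones and from 129 to 2926 for the tumors. The lowest counts, 70 and 129, came with the filter on level, which left fewer probe sets to test. The highest came with the crossed pairing below. With tumor as a replicate block, 0 probe sets were called between the clones (128 at an unadjusted p under 0.05), and this pairing changed no call; clone class as a block between the tumors gave 0 as well. A crossed pairing of the arrays as a block, chosen after seeing the data, called 0 probe sets and 0 junction genes in either comparison. With it, 3 junction genes had an unadjusted limma p under 0.05 between the tumors and 0 between the clones. Ocln lay under the level filter and has no value there. The count of junction genes with lower expansion in tumor A but higher expansion in tumor B was 9 and became 5 with the pan-endothelial mean subtracted and 8 at 2-fold. That scaling moved the median clone difference of all genes by 0.27 and the median tumor difference by -0.64. It turned the clone difference of Jam3 (0.25), Tjp1 (0.14) and Cgnl1 (0.26) and the tumor difference of Cdh5 (-0.064), Pecam1 (-0.38), Esam (-0.20), Jam3 (-0.58), F11r (-0.10), Tjp1 (-0.15) and Cgnl1 (-0.28). Quantile normalization turned the clone differences of Jam3 (0.00068) and Cgnl1 (0.0054), both near 0, and the mean of all probe sets that of Jam3 (0.042). Leaving out 1 array at a time, the clone difference ranged from -1.94 to 0.88 for Cdh5, -1.70 to 0.75 for Pecam1, -1.85 to 3.06 for Cldn5, -1.63 to 0.87 for Esam, -1.52 to 2.46 for Jam2, -0.61 to 0.57 for Jam3, -1.34 to 0.79 for F11r, -0.98 to 0.72 for Tjp1, 0.016 to 0.40 for Ocln and -0.44 to 0.43 for Cgnl1. In 9 of the 10 the sign thus rested on single arrays, the lowest value coming without expansion B and the highest without expansion A. The tumor difference ranged from -0.81 to 1.96 for Cdh5, -1.06 to 1.59 for Pecam1, 0.27 to 3.77 for Cldn5, -0.78 to 1.66 for Esam, -0.089 to 2.94 for Jam2, -0.51 to 0.63 for Jam3, -0.40 to 1.47 for F11r, -0.17 to 1.16 for Tjp1, -0.34 to 0.15 for Ocln and 0.11 to 0.62 for Cgnl1. For Cldn5 the tumor difference was 0.27 without expansion B. With 3 arrays left, the lone array of a class is assumed to vary like the others. The precision is limited by the number of arrays.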

Other observations

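Markers of other cells that carry some of the 10 junction genes were measured at various levels. Of the platelet and erythroid list, which bears on F11r, Pecam1 and Esam as genes of platelets, the mean of 9 measured genes was 5.71 (expansion) and 6.04 (extinction) in tumor A and 6.22 and 5.98 in tumor B. The platelet integrin Itga2b lay between 7.71 and 8.82. The platelet glycoprotein Gp1bb was at 5.17, 6.55, 6.78 and 5.62, and the platelet chemokine Pf4 at 5.82, 6.50, 6.55 and 6.41. The lymphatic regulator Prox1 lay between 4.62 and 5.36, and Lyve1 between 4.70 and 5.06. The other 3 measured genes of the lymphatic list were Pdpn, between 10.56 and 11.62, Flt4, between 7.97 and 9.86, and Reln, between 4.43 and 7.47, and Flt4 and Reln crossed at 2-fold with the junction genes. The epithelial cadherin Cdh1 was at 5.31 in expansion A and between 3.70 and 4.25 elsewhere. In the leukocyte list Cd14 had the signs of the junction genes, at 7.67, 10.20, 11.06 and 8.74 in the same array order. The phosphatase gene Ptprb, whose product VE-PTP binds VE-cadherin, which the adherens junction list holds too, was the 1 gene of the pan-endothelial list with the reverse signs (1.01 and -0.40), by its brightest probe set; neither of its other 2 probe sets had those signs.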
